A study of Mus musculus with 15 samples.

Results

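The 5 livers of mice given saline form the control group of a mouse study of chemotherapy, and their libraries are described here: which transcripts were most abundant, which gene classes filled the transcript pool, and which genes differed most and least from liver to liver. All 5 saline libraries of the 15 in the series were used, and 6718 of the 21878 genes in the table entered the description of spread because their mean over the saline libraries reached 5 FPKM. FPKM is the number of fragments assigned to a gene, divided by the length of its transcript and by the depth of the library, so it can be compared between genes. The animals of all groups were male C57BL/6J mice of 8 weeks, randomized before a single intraperitoneal injection, and poly(A) RNA was sequenced from livers taken 1 day later. The treated groups were 5 cisplatin livers (10 mg/kg, dissolved at 1 mg/mL in saline) and 5 doxorubicin livers (10 mg/kg, dissolved at 2 mg/mL in sterile water), and the saline group received saline alone, which was the solvent of cisplatin but not of doxorubicin. The labels name no cage or day for a library, the hour of dissection and the feeding state are not given in the sources used here, and the p-values below measure only the spread between these libraries.

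The liver makes most of the proteins of blood plasma, among them albumin, the apolipoproteins that carry lipid, transport proteins, clotting factors and complement. Hepatocytes, its main cell type, also hold the enzymes of the urea cycle, of amino acid breakdown and of drug metabolism. Many hepatic genes follow the clock, feeding, stress hormones and inflammation, so a control group carries some of that variation. In bulk RNA, fewer cells of a type and less RNA per cell cannot be told apart.

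Cisplatin libraries held 25256043 to 31024726 assigned fragments, doxorubicin libraries 37603993 to 50727121, and saline libraries 27565957 to 34700317. All 20 hepatocyte markers had a mean of at least 5 FPKM in saline livers, while the summed level of 24 exocrine pancreas markers was 7.53 to 9.66 FPKM, with 15 of them at 0, and that of 10 kidney and adrenal markers was at most 2.20 FPKM. The 12 adipose markers summed to 969 to 1468 FPKM, with Car3 alone at a mean of 1127 FPKM, and the 12 intestine markers to 205 to 252 FPKM. The cells behind these sums were not tested. Saline 2 stood apart from the other saline livers. It was the highest library in 3292 of the 6718 genes (49.0%) and the lowest in 1803 (26.8%), so that it lay outside the range of the other saline livers in 75.8% of genes, against 22.7% to 44.3% for each of the others. Its difference from the mean of the others was larger in the quintile of genes of highest GC content (median 0.32 on the log2 scale) than in the quintile of lowest GC content (0.06), and larger in the quintile of longest transcripts (0.29) than in that of the shortest (0.07), which are values from 97.7% of these genes for GC. Whether base composition or length had a part in the results below was not tested. Several results that rest on saline 2 are given with and without it, and values given only once include it unless stated otherwise.

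Albumin was the most abundant transcript and apolipoprotein E the second in all 5 saline libraries. Alb, the main plasma protein and carrier of fatty acids, stood at 40178, 29217, 43254, 38026 and 41392 FPKM in saline 1 to 5. Its lowest value was in saline 2, and the other livers were close together, so that the coefficient of variation (CV, the SD divided by the mean) was 14.3% over the 5 libraries and 5.39% without saline 2. On average Alb took 7.005 ± 0.971% of the summed FPKM of a library (SD, n = 5). The 250 bases before its RefSeq start, chr5:90460620-90460869 on the plus strand of GRCm38.p6, are shown because this promoter is the textbook example of liver-specific control. Capitals mark the D-element form TTNTGTAA, which the clock output factors DBP and TEF recognise, and GTTAAT, the core of sites for the liver factor HNF1, each searched on both strands.
Alb: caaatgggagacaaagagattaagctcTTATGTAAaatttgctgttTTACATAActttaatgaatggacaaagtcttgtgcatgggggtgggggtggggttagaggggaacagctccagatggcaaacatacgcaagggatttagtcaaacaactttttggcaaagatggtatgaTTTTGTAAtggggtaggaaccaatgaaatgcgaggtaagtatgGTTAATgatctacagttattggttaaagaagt
The D-element form occurred 3 times, at 223, 204 and 75 bases before the start, and is held by 3.51% of 32851 RefSeq promoters of this length. GTTAAT occurred once, 32 bases before the start, and is held by 6.43% of them. A match is a description of the letters and shows no binding.

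Apoe, a ligand for lipoprotein receptors, stood at 22894, 26873, 22495, 23774 and 23672 FPKM in saline 1 to 5, with the highest value in saline 2. Apoa2 and Apoa1, the main proteins of high-density lipoprotein, followed. Apoa2 had 11885, 17970.3, 11488, 10322 and 13468 FPKM, and Apoa1 had 10035, 16554, 8446, 8780.0 and 11588 FPKM. Both were highest in saline 2 and next highest in saline 5. Mup3, a major urinary protein that carries pheromones, came next with 9556, 5875, 8018, 7119 and 8071 FPKM, lowest in saline 2. Ttr, the thyroid hormone and retinol carrier transthyretin, had 5836 to 6875 FPKM, and Rbp4, the retinol-binding protein that travels with it in plasma, had 3173 to 3502 FPKM. Their CVs of 6.23% and 4.66% were among the smaller ones of the leading genes. Trf, the iron carrier transferrin, had 6244, 2602, 6111, 6354 and 5082 FPKM, so saline 2 was far below the others. Fabp1, the liver fatty acid-binding protein, went the other way with 3718, 6481, 2350.3, 3019.9 and 4003 FPKM.

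The 30 genes of highest mean were, in order, Alb, Apoe, Apoa2, Apoa1, Mup3, Ahsg, Ttr, Apoc1, Trf, Serpina3k, Cyp2e1, Serpina1b, Fabp1, Apoc3, Hp, Gc, Ftl1, Rbp4, Serpina1e, Gm21320, Hpx, Mgst1, B2m, Apoh, Fgb, Cyp3a11, Serpina1c, Bhmt, Sepp1 and Ambp. Most encode secreted proteins. The exceptions include the cytochrome P450 enzymes Cyp2e1 and Cyp3a11, the iron storage subunit Ftl1, the microsomal glutathione transferase Mgst1, and Bhmt, which remakes methionine from homocysteine. The gap in means was larger than the sum of the SDs of both genes only between Alb and Apoe and between Apoe and Apoa2. For the other neighbours the gap was within that sum, although 7 of all 29 pairs, among them Apoa2 over Apoa1 and Apoa1 over Mup3, stood in the same order in all 5 libraries. Ambp, the last gene on the list, averaged 2318 FPKM, and Fgg, the first one off it, 2128 FPKM.

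**Figure D1:**
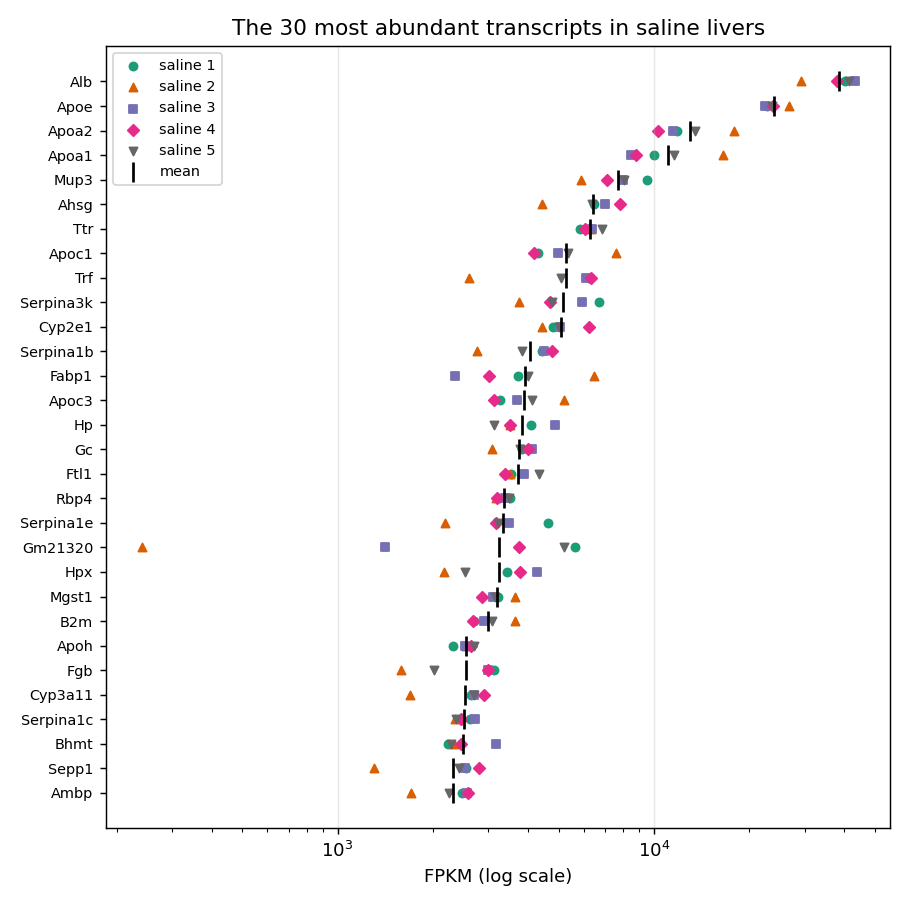
FPKM on a log axis of the 30 most abundant genes in each saline library (symbols by library) with their mean (vertical tick). Alb lies between 29217 and 43254 FPKM and Apoe between 22495 and 26873 FPKM, and saline 2 is the lowest symbol for Alb and Trf and the highest for Apoe, Apoa2, Apoa1 and Fabp1.

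The pool was concentrated in few genes. Between 97 and 130 genes made up 50% of the summed FPKM in a library (107.6 ± 13.1 genes, SD, n = 5), with 130 in saline 2 and 102 ± 4.40 in the 4 other livers. The 10 most abundant genes of a library took 22.7 ± 0.456% of it, and 2596 ± 216 genes made up 90%. At the other end, 5494 genes of the table were at 0 in all 5 libraries. The mean reached 1 FPKM for 10355 genes, 100 FPKM for 716 and 1000 FPKM for 68. The table lists 0 mitochondrially encoded genes, so the shares are of nuclear transcripts.

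By summed FPKM, secreted plasma and urinary proteins were the largest part of the pool. Their 6 classes, which hold 229 genes, took 40.8%, 35.5%, 40.3%, 39.0% and 38.4% of the summed FPKM in saline 1 to 5, lowest in saline 2. Within them, apolipoproteins took 11.5 ± 1.90% (SD, n = 5 here and for the other classes), with 14.7% in saline 2 and 10.3% to 11.6% in the others. Acute-phase and transport proteins took 10.0 ± 1.23%, and the albumin family, which includes alpha-fetoprotein and the vitamin D-binding protein Gc, 7.71 ± 1.04%. Serpins, the protease inhibitors of plasma, took 3.95 ± 0.635%. Complement and coagulation factors took 2.87 ± 0.574%, with 2.03% in saline 2. Major urinary proteins took 2.77 ± 0.971%, and their share had the largest relative spread of the 6 classes, a CV of 35.0%.

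Among metabolic enzymes and housekeeping machinery, the largest classes each held 2.30% to 4.41%, with CVs of the share of 2.80% to 11.05%, against 12.3% to 35.0% in the 6 secreted classes. These CVs include saline 2. Without it the albumin family took 8.16 ± 0.372% and apolipoproteins 10.7 ± 0.625%, beside 4.51 ± 0.311% for urea cycle and amino acid enzymes. Relative to the means, the spreads of secreted and metabolic classes then overlapped. Major urinary proteins, at 3.07 ± 0.816%, still varied most of the 6 secreted classes. Urea cycle and amino acid enzymes took 4.41 ± 0.339%, lipid metabolism genes 4.08 ± 0.451%, cytochrome P450 enzymes 3.69 ± 0.161% and conjugation enzymes 2.30 ± 0.138%. The 100 nuclear subunits of oxidative phosphorylation took 2.59 ± 0.0725%, the smallest relative spread of these, and cytosolic ribosomal proteins 3.27 ± 0.164%. Metallothioneins, which bind zinc and copper, took 0.152 ± 0.0741%, and the share ran between 0.0672% in saline 1 and 0.263% in saline 3. Genes in no class took 29.7 ± 2.13%. Since FPKM divides by length, short transcripts weigh more than in reads: by assigned fragments the 6 secreted classes took 32.6%, apolipoproteins 6.34% and major urinary proteins 1.41%. Genes in no class took 40.1% of the fragments, more than the 6 secreted classes.

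**Figure D2:**
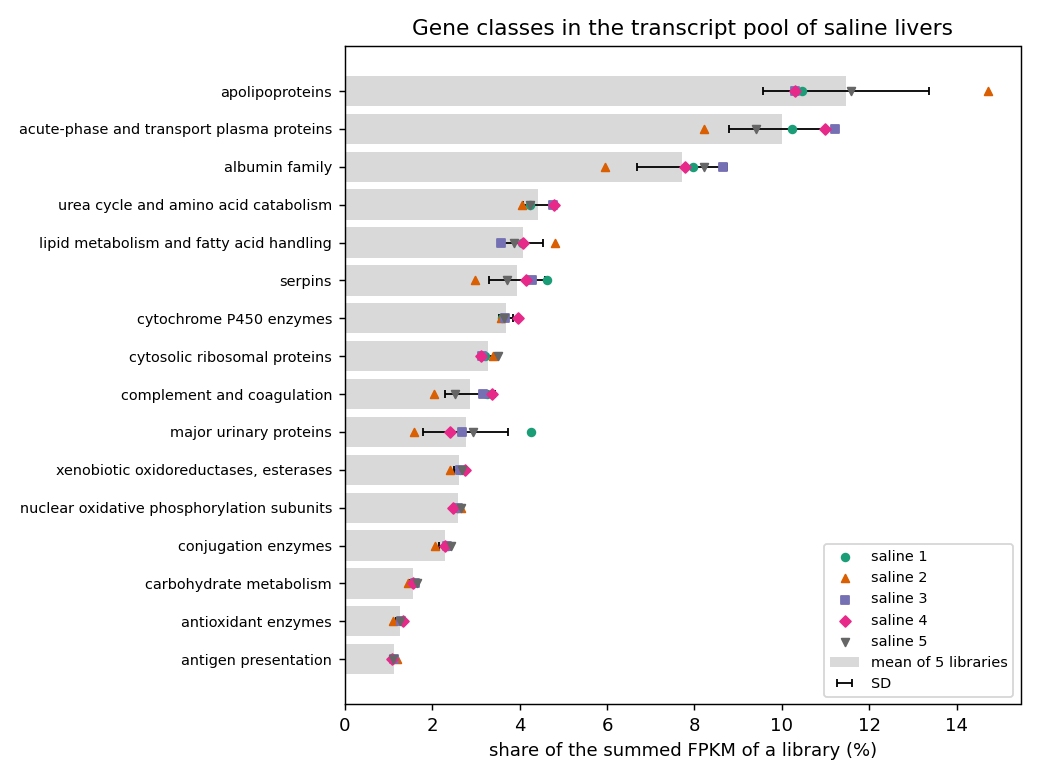
Share of the summed FPKM of a library held by each gene class, in percent (bars are means of 5 saline libraries, lines the SD, symbols the libraries). Apolipoproteins reach 14.7% in saline 2 against 10.3% to 11.6% in the others, while oxidative phosphorylation subunits stay between 2.48% and 2.65%.

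Across the 6718 genes the median CV between saline livers was 14.5%, with quartiles of 9.25% and 22.3%, and it was 9.38% without saline 2. The counting error expected from the fragments of a gene had a median CV of 2.87%, so that most of the spread lay above it. The median CV was 16.4% in the decile of genes of lowest level and 13.5% in that of highest level, a small change beside that of the counting error (4.35% and 0.979%). A CV of at least 50% was reached by 132 genes (1.96%) with all 5 libraries by 64 without saline 2 and by 206 without saline 5, and 8 genes reached 100%. The 100 genes of highest CV ended with Cyp2b9 at 54.4%, and BC037034 just outside had 53.5%. At the other end, 369 genes (5.49%) had a CV under 5%, and the 100 lowest ended with Baat at 3.330% and Txnrd1 just outside at 3.331%. The lowest level let in was that of Rpa1, at 5.0004 FPKM. Of the 100 most variable genes 48 were also among the 100 most variable without saline 2. Saline 2 was the highest library in 58 of the 100, against 49.0% of all 6718 genes, and saline 4 was the lowest in 43, against 24.5%.

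**Figure D3:**
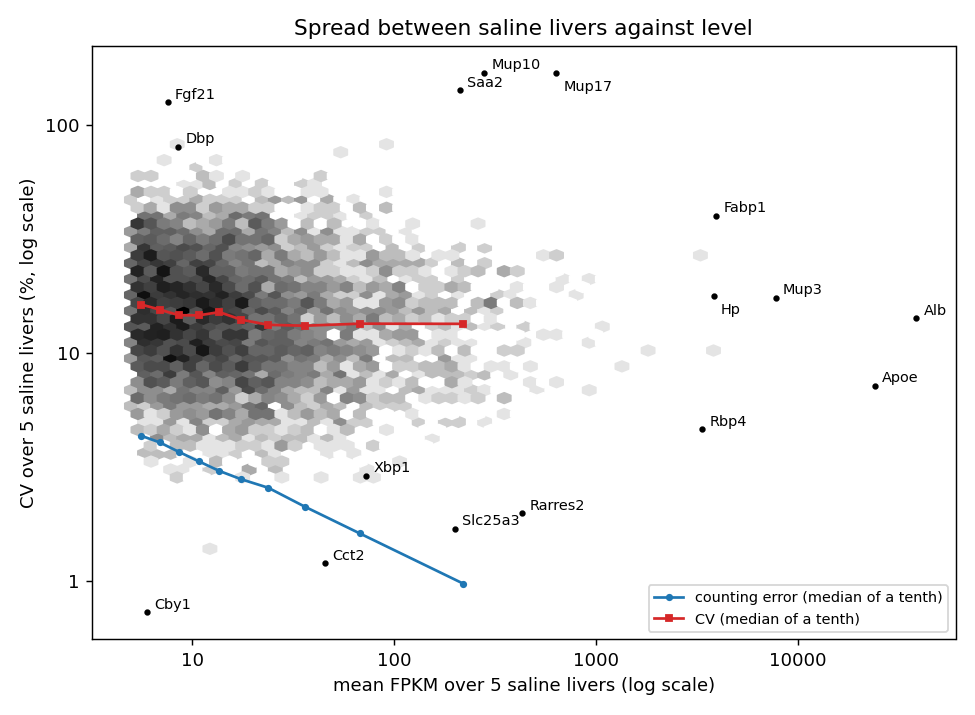
CV over the 5 saline livers against mean FPKM, both on log axes, for 6718 genes, with the median CV and the median counting error in each decile of genes by level. The CV medians stay between 13.2% and 16.4% while the counting error falls to 0.979% in the highest decile.

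The major urinary proteins led the list of variable genes. These are small lipid carriers made by the male liver under growth hormone and excreted in urine, and their genes form a cluster of near copies on chromosome 4. Of the 18 with a mean of at least 5 FPKM, 15 had a CV of at least 50% (background 1.96%), and 14 of the 100 most variable genes were Mups. Mup10 stood at 44.7, 204, 1116, 14.6 and 17.0 FPKM in saline 1 to 5. Mup17 stood at 2550.0, 129.6, 253, 34.5 and 199.9 FPKM. Each was thus high in a different single liver, saline 3 for Mup10 and saline 1 for Mup17. Mup7 had 1605, 310.0, 1076, 261 and 746 FPKM, and Gm21320, which RefSeq names Mup22, had 5632, 240.0, 1409, 3753 and 5186 FPKM. The sum over the 22 genes was 23522, 8614, 14733, 13028 and 16183 FPKM, a CV of 35.8%, highest in saline 1 and lowest in saline 2. The members had a median CV of 69.2%, and the sum of the 19 genes other than Mup3, Mup20 and Mup21 had one of 63.0%. The lower CV of the whole sum rests on the abundant Mup3 (mean 7728 FPKM, CV 17.5%) and Mup20 (mean 1125 FPKM, CV 24.7%), since Mup21 averaged only 45.2 FPKM.

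The second coding exons of 5 of these genes are shown for how alike the copies are. Which members the alignment could separate was not tested. All 5 exons are on the minus strand of chromosome 4 of GRCm38 and were taken from the transcripts of GENCODE M21. They lie at chr4:60581521-60581654 (Mup10), chr4:61595193-61595326 (Mup17), chr4:60069733-60069866 (Mup7), chr4:60740648-60740781 (Mup12) and chr4:62086800-62086933 (Mup3), and capitals mark bases that differ from Mup10.
Mup10: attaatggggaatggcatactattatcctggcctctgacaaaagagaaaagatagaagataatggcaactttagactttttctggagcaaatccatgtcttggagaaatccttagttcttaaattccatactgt
Mup17: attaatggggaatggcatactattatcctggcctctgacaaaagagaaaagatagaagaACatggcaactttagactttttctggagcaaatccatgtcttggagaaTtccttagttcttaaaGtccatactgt
Mup7: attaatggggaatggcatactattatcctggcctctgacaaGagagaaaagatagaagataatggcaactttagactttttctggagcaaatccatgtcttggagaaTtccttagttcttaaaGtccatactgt
Mup12: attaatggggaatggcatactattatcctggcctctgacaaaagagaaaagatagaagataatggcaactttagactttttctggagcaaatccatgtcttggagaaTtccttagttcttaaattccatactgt
Mup3: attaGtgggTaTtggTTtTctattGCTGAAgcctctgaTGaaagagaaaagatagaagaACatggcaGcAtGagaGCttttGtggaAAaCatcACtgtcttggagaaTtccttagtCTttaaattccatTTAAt
Over these 134 bases Mup12 differed from Mup10 at 1 position, Mup7 at 3 and Mup17 at 4, while Mup3 differed at 34. Over whole transcripts, 73.4% of the windows of 100 bases of Mup10, 59.4% of those of Mup17 and 76.1% of those of Mup7 were shared exactly with another Mup, against 2.23% of those of Mup3. The values of Mup10, Mup17, Mup7, Mup12 and Gm21320 are therefore uncertain, since the counting could divide fragments between copies. Among the members that share few windows the spread was not uniform: Mup3 had a CV of 17.5%, and Mup21, which shares 4.50% of its windows, had one of 50.2%.

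Acute-phase genes, which hepatocytes switch on under interleukin-6 and interleukin-1, were high mainly in saline 3. Of the 27 on the list, 16 were highest in saline 3 (background 8.45%) and 14 were lowest in saline 2 (background 26.8%). Without saline 2, 17 of the 27 were highest in saline 3 (background 13.9%). Saa1, a serum amyloid A protein carried on high-density lipoprotein, stood at 307, 59.6, 1377, 609 and 53.6 FPKM, and its neighbour Saa2 at 66.3, 14.8, 725, 233 and 16.6 FPKM. Both put the livers in nearly the same order, with saline 3 and saline 4 high and saline 2 and saline 5 low. Lcn2, lipocalin-2, which binds bacterial siderophores, had 36.6, 15.2, 85.9, 24.7 and 13.8 FPKM. Orm2, an orosomucoid, had 44.99, 27.5, 126, 54.5 and 23.5 FPKM. Hp, the haemoglobin scavenger haptoglobin, varied less, with 4083, 3501, 4886, 3501 and 3134 FPKM and a CV of 17.9%. Of 14 neutrophil markers only Lcn2, which both lists hold, had a mean of at least 5 FPKM, and the 13 others summed to 6.17, 7.17, 7.52, 5.25 and 9.37 FPKM in saline 1 to 5, highest in saline 5 and not in saline 3.

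The promoters of Saa1 and Saa2 are shown because this pair moved together and the genes lie close to each other on chromosome 7. The 250 bases before each RefSeq start lie at chr7:46742981-46743230 on the minus strand (Saa1) and chr7:46751583-46751832 on the plus strand (Saa2) of GRCm38.p6, and capitals mark bases that differ between them.
Saa1: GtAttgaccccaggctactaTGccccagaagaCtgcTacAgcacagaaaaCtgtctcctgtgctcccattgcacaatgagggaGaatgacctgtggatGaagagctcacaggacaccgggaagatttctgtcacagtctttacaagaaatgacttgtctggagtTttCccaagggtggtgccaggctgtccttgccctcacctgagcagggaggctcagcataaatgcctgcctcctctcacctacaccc
Saa2: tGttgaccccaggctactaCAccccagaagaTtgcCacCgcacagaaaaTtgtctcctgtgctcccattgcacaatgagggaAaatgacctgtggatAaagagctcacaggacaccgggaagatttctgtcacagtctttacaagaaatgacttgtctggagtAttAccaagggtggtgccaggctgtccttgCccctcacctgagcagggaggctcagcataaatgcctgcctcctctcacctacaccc
They differ by 11 substitutions and 2 inserted or deleted bases. The C/EBP-type form TTGNGNAA, searched on both strands, occurred 2 times in Saa1 and once in Saa2, and is held by 11.7% of RefSeq promoters of this length. Since the pair is alike in sequence beyond the promoter too, fragments may have been divided between them.

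Genes that follow the clock also separated the livers. Dbp, a clock output transcription factor, stood at 0.922, 18.2, 11.3, 3.06 and 9.20 FPKM in saline 1 to 5. Tef, its relative, stood at 14.3, 63.7, 32.2, 21.7 and 35.1 FPKM. Saline 1 was lowest and saline 2 highest for both. Noct, a rhythmic gene of the deadenylase family, had 2.97, 18.3, 14.9, 2.48 and 6.78 FPKM, low in saline 1 and saline 4. Nr1d1 and Per1, repressors of the core loop, were less spread than Dbp, Tef and Noct. Nr1d1 had 30.05, 80.7, 29.5, 42.4 and 60.5 FPKM (CV 45.1%) and Per1 had 6.45, 18.2, 10.1, 10.6 and 13.3 FPKM (CV 37.4%). The CVs of Dbp, Tef and Noct were 80.6%, 56.5% and 78.9%. The 10 clock output genes had a median CV of 37.9%, against 14.5% for all genes, and 33.8% without saline 2.

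Fasting and PPARα target genes, which serve fatty acid oxidation, were highest in saline 2, in 19 of 25 cases (background 49.0%). Without saline 2, 16 of the 25 were highest in saline 4 (background 26.1%). Fgf21, a fasting hormone of the liver, stood at 4.45, 24.5, 1.484, 3.99 and 3.41 FPKM. Acot3, a peroxisomal thioesterase, stood at 6.62, 36.5, 7.15, 12.8 and 13.1 FPKM. For both, saline 2 lay far above the other livers, and the CV of Fgf21 was 126% with it and 39.1% without it. Pdk4, which shuts off pyruvate oxidation, had 6.67, 16.01, 1.81, 4.84 and 6.76 FPKM, and Cyp4a14, a fatty acid hydroxylase, had 1041, 2108, 599.9, 1088 and 1024 FPKM. Both were highest in saline 2 and lowest in saline 3. G0s2, an inhibitor of triglyceride lipolysis, had 141, 581, 51.3, 112 and 144 FPKM, and Txnip, which restrains glucose uptake, had 51.9, 117, 24.0, 22.9 and 45.2 FPKM. Lgals4, a galectin, rested on saline 2 alone: at 56.1, 211, 50.1, 50.8 and 60.96 FPKM, its CV was 81.6% with that liver and 9.32% without it.

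Chaperone genes behaved likewise. Of the 16 heat shock genes, 12 were highest in saline 2 (background 49.0%), and the list's median CV was 17.6% with that liver and 10.5% without it. Hspa8, the constitutive HSC70 chaperone, had 338, 678, 458, 415 and 396 FPKM. Hsph1, its nucleotide exchange factor, had 6.61, 19.8, 7.52, 7.80 and 7.02 FPKM. Genes of the endoplasmic reticulum had the same high library: Creld2 stood at 14.5, 47.9, 18.4, 16.6 and 12.8 FPKM, and Syvn1, a ligase of protein degradation from that compartment, at 31.5, 102, 43.6, 33.4 and 40.8 FPKM. Across the 21 genes of the unfolded protein response list, however, 11 were highest in saline 2, close to the 49.0% of all genes. Muscle markers, 16 genes none of which reached a mean of 5 FPKM, summed to 20.6 FPKM in saline 2 and to 6.88 to 7.69 FPKM in the others, and their part in these results was not tested.

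Glucocorticoid and stress genes split the livers in other ways. Zbtb16, a transcriptional repressor induced by glucocorticoids, stood at 7.38, 13.2, 3.68, 11.1 and 42.3 FPKM, so saline 5 was far above the rest. Ddit4, an inhibitor of mTORC1, had 5.79, 7.92, 33.4, 11.8 and 9.17 FPKM, with saline 3 far above the rest. The metallothioneins were also highest in saline 3, Mt1 with 260.5, 379, 877, 556 and 495 FPKM and Mt2 with 112, 256, 569.9, 418 and 241 FPKM. Of the 15 glucocorticoid targets, 7 were highest in saline 3 (background 8.45%) and 9 were lowest in saline 1 (background 18.7%). Without saline 2, 8 of the 15 were highest in saline 3 (background 13.9%). The immediate early gene Egr1 had 17.9, 7.46, 3.96, 38.2 and 17.1 FPKM, while Dusp1, a phosphatase of the same early response, had 11.9, 22.6, 33.6, 6.99 and 32.8 FPKM. Saline 4 was thus highest for Egr1 and lowest for Dusp1. Gadd45b, a stress gene, had 6.61, 28.5, 10.6, 6.21 and 22.2 FPKM, high in saline 2 and saline 5.

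Cholesterol synthesis genes, targets of SREBP2, moved together. Of 24 genes, 19 were highest in saline 5 (background 13.7%), 15 were lowest in saline 4 (background 24.5%), and their median CV was 27.2%, against 14.5% for all genes. Without saline 2, 20 of the 24 were highest in saline 5 (background 44.8%). Fdps, which makes farnesyl diphosphate, stood at 42.4, 29.6, 56.7, 23.6 and 75.5 FPKM. Sqle, squalene epoxidase, had 8.80, 6.61, 11.5, 3.91 and 13.5 FPKM, and Mvd, mevalonate decarboxylase, had 5.54, 6.23, 5.36, 2.70 and 9.81 FPKM. Saline 4 was lowest for all of these and saline 5 highest. Fasn, fatty acid synthase, had 14.0, 13.8, 22.9, 9.90 and 33.3 FPKM in the same pattern. Thrsp, a lipogenic gene, had 30.4, 19.1, 74.4, 24.3 and 69.8 FPKM, high in saline 3 and saline 5. Scd1, the stearoyl-CoA desaturase, differed from these, with 329.7, 194, 416, 549 and 236 FPKM and its highest value in saline 4. Cyp7a1, the rate-limiting enzyme of bile acid synthesis, had 12.9, 51.6, 33.4, 83.9 and 40.7 FPKM, also highest in saline 4.

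Genes whose level differs between male and female mouse liver varied between these male livers. Of 23 male-biased genes, 16 were highest in saline 1 (background 9.04%), and 17 without saline 2 (background 15.2%). The list holds 7 of the Mups described above, and of the 16 other genes 11 were highest in saline 1, and 12 without saline 2. The female-biased Cyp2b9 was lowest there, with 10.1, 55.8, 36.2, 70.3 and 36.8 FPKM. The 7 female-biased genes with a mean of at least 5 FPKM were lowest in saline 1 in 5 cases (background 18.7%). Cyp2b10, the classic target of the receptor CAR, had 14.0, 3.15, 29.0, 10.8 and 9.22 FPKM, and the organic anion carrier Slc22a26 had 2.06, 5.52, 2.98, 13.5 and 2.59 FPKM. The Y-linked Eif2s3y was detected in every liver, at 31.7, 56.3, 35.3, 33.9 and 40.4 FPKM. Kupffer cells, the resident macrophages, had 10 markers with a mean of at least 5 FPKM, of which 7 were highest in saline 4 (background 19.8%) and 7 lowest in saline 2 (background 26.8%). Cd5l, a secreted macrophage protein, had 20.3, 6.93, 13.7, 20.9 and 14.6 FPKM, and Clec4f, a lectin specific to these cells, had 27.4, 24.3, 19.8, 22.3 and 23.3 FPKM.

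**Figure D4:**
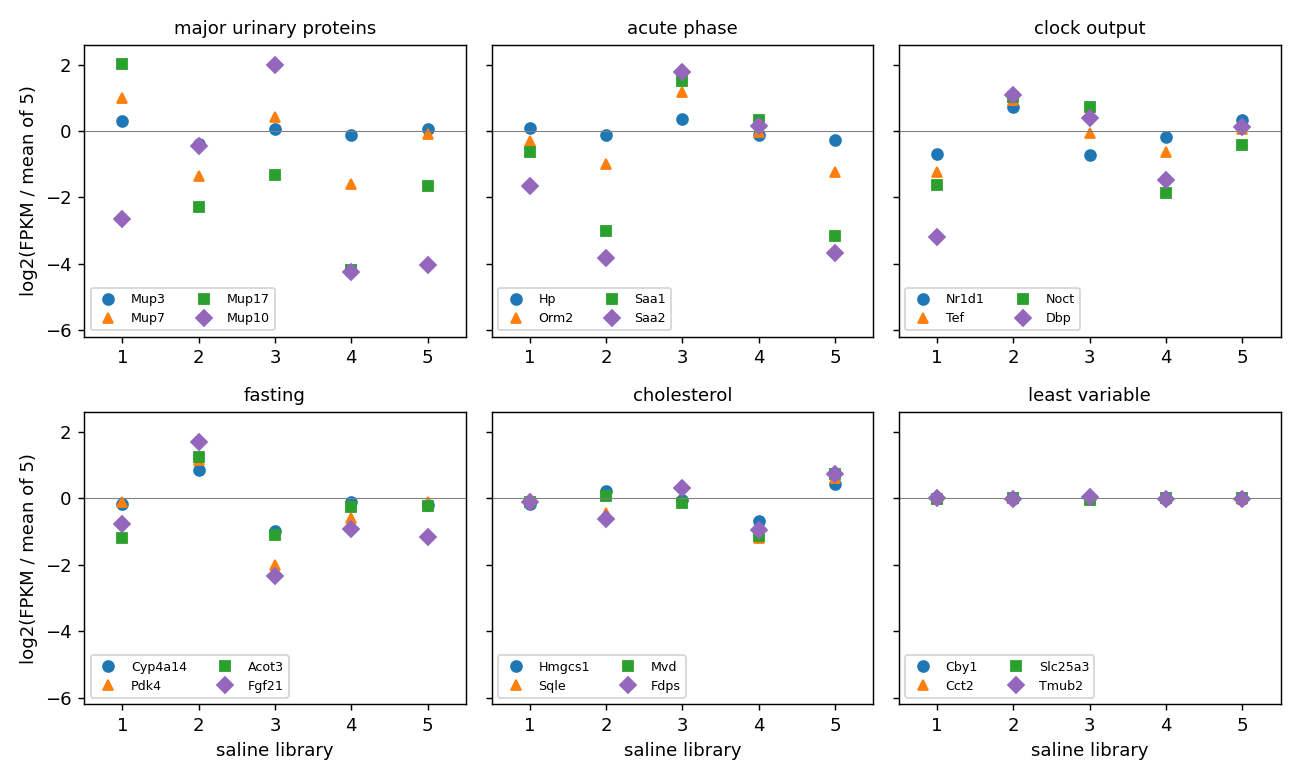
Level of 4 genes in each of 6 groups in saline 1 to 5, as log2 of FPKM over the mean of the 5 libraries. The highest libraries differ between groups: saline 3 for Saa1 and Saa2, saline 2 for Fgf21, Acot3 and Pdk4, and saline 5 for Fdps, Sqle and Mvd, while Cby1, Cct2, Slc25a3 and Tmub2 lie near 0.

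Many of the least variable genes had a spread no larger than their counting error. Among the 100 lowest, 46 had a CV at or under that expected from their fragments, and among the 25 named, 21 did. Cby1, an antagonist of beta-catenin signalling, stood at 6.00, 5.89, 5.95, 5.93 and 5.97 FPKM, a CV of 0.733% beside a counting error of 7.25%. Slc25a3, the mitochondrial phosphate carrier, stood at 198, 203, 195, 200.1 and 203 FPKM, a CV of 1.70%. Its counting error was lower, at 1.09%, and the difference was not tested. Cct2, a subunit of the TRiC chaperonin, had 44.8, 45.9, 46.1, 45.9 and 45.2 FPKM. Rarres2, the adipokine precursor chemerin, which liver secretes, had 440.4, 428, 424, 439 and 422 FPKM. Tmub2 had 14.3, 13.9, 14.4, 13.9 and 13.9 FPKM. All 5 livers of these genes lay close together, saline 2 included. Which genes are least variable depends on the scaling of FPKM: after scaling by median ratios, which takes out the median shift of saline 2, the list of least variable genes shared 0 of the 100, and the list of most variable genes 75 of the 100.

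Some genes often used as references varied more. Of a list of such genes, 18 had a mean of at least 5 FPKM. Their median CV was 17.7%, against 14.5% for all genes, and 10.98% against 9.38% without saline 2. Sdha, of the succinate dehydrogenase complex, had 108, 42.8, 103, 117 and 77.6 FPKM, and Pgk1, of glycolysis, had 107, 44.1, 107, 117 and 86.6 FPKM, both with a low value in saline 2. Gapdh had 6.83, 17.8, 10.9, 5.05 and 13.6 FPKM, a level that is uncertain because its fragments may be shared with processed copies. Of the genes in the study's title, Gdf15, a stress hormone that suppresses appetite, had 9.61, 11.5, 4.92, 10.8 and 10.97 FPKM in saline livers, and Ern1, which encodes IRE1α, had 8.81, 6.17, 9.78, 8.65 and 11.1 FPKM. Xbp1, the target that IRE1α splices, was among the steady genes, at 71.4, 75.8, 71.3, 73.7 and 70.8 FPKM, a CV of 2.91%.

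The same CVs were taken in the drug groups, which the ranking did not use. The 100 most variable genes had a median CV of 34.9% in cisplatin livers and 30.03% in doxorubicin livers, against 63.1% in saline livers. For all 6718 genes the medians were 11.95% in cisplatin livers, 11.3% in doxorubicin livers and 14.5% in saline livers. Of the 100, 80 were in the highest decile by CV in cisplatin livers and 56 in doxorubicin livers (background 10.0%), and 51 were in both. The 48 that also ranked so without saline 2 had medians of 57.7% in cisplatin livers, 55.3% in doxorubicin livers and 71.1% in saline livers. Mup10 had a CV of 102% in cisplatin livers, 67.3% in doxorubicin livers and 169.8% in saline livers, and Saa2 had 159%, 55.2% and 143% in that order. Dbp was less spread in the drug groups, with 56.4% in cisplatin livers, 24.6% in doxorubicin livers and 80.6% in saline livers. The clock output list had medians of 21.3% in cisplatin livers, 17.0% in doxorubicin livers and 37.9% in saline livers.

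Low spread carried over less. The 100 least variable genes had a median CV of 8.31% in cisplatin livers and 8.20% in doxorubicin livers, against 2.89% in saline livers, and 21 and 22 of them were in the lowest decile in cisplatin and doxorubicin livers (background 10.0%), 4 in both. Tmub2 was steady in all groups, with CVs of 1.85% in cisplatin livers, 1.56% in doxorubicin livers and 1.83% in saline livers. Cby1 was not, with 20.6% in cisplatin livers and 15.6% in doxorubicin livers. Slc25a3 had 3.43% in cisplatin livers and 6.63% in doxorubicin livers, against 1.70% in saline livers. No test was made of these differences in spread.

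**Figure D5:**
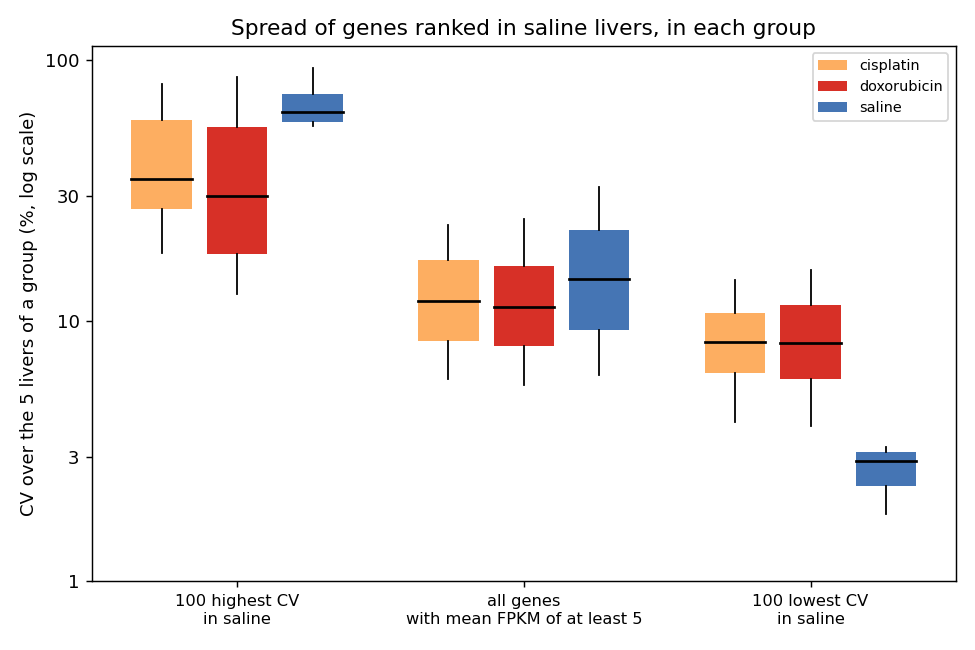
CV over the 5 livers of a group on a log axis, for the 100 genes of highest CV in saline livers, all 6718 genes and the 100 of lowest CV (boxes are quartiles, black bars medians, lines the central 80% of genes). The 100 most variable genes have medians of 34.9% in cisplatin, 30.03% in doxorubicin and 63.1% in saline livers, and the 100 least variable 8.31%, 8.20% and 2.89%.

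Finally, each drug group was compared with the saline livers to see how the ranked genes stood after treatment. The saline livers that ranked the genes are also the controls of both comparisons, which therefore share them. Differences are on the scale of log2(FPKM + 1) and were tested with limma at an adjusted p of 0.05 over 10552 genes. In cisplatin livers 5 of the 30 most abundant genes changed, 3 higher and 2 lower, against 11.1% of all genes (6.08% higher, and 528 genes lower), and in doxorubicin livers 11 did, 7 higher and 4 lower, against 31.6% (14.4% higher and 17.2% lower, a balance that turned to 1808 higher and 1653 lower genes under median-ratio scaling). The 5 of cisplatin livers were Hp, the haem carrier Hpx and the selenium carrier Sepp1, which were higher, and Cyp2e1 and Cyp3a11, which were lower. Their number was 1 without saline 5 or cisplatin 2, 2 without saline 1, saline 3, cisplatin 1 or cisplatin 3, and 3 without cisplatin 4, cisplatin 5 or doxorubicin 1, 2 or 3. Hp stood at 6078, 9484, 6003, 6742 and 5627 FPKM in cisplatin livers and 9479, 9991, 10116, 9280.3 and 8697 FPKM in doxorubicin livers, all above the 3134 to 4886 FPKM of saline livers. It was higher by 0.82 (SE 0.14, adjusted p = 0.00126) in cisplatin livers and by 1.33 (SE 0.14, adjusted p = 3.33e-06) in doxorubicin livers. Fgb, the fibrinogen beta chain, changed by -0.05 in cisplatin livers (adjusted p = 0.905) and by 1.405 in doxorubicin livers (SE 0.17, adjusted p = 1.66e-05).

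Some enzymes of the same list were lower after doxorubicin. Cyp2e1, which oxidizes ethanol and small solvents, stood at 2069, 1866, 2221, 2126 and 1700.2 FPKM in doxorubicin livers, against 4796, 4430, 5057, 6232 and 5017 FPKM in saline livers, with no overlap. The limma difference was -1.35 (SE 0.11, adjusted p = 3.97e-07). Bhmt stood at 1184, 978, 642, 629 and 635 FPKM in doxorubicin livers and at 2241 to 3168 FPKM in saline livers, a difference of -1.66 (SE 0.17, adjusted p = 2.48e-06). Rbp4, steady within saline livers, was lower by a small amount in doxorubicin livers (-0.45, SE 0.07, adjusted p = 0.000256). Alb did not pass the test in either group: 0.02 in cisplatin livers (adjusted p = 0.933) and -0.20 in doxorubicin livers (adjusted p = 0.193).

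Among the 100 most variable genes 12 changed in cisplatin livers (2 higher, 10 lower, and 7 in all without cisplatin 3) and 27 in doxorubicin livers (8 higher, 19 lower), near the 11.1% and 31.6% of all genes. The choice by spread in the same saline livers fixes a larger error for these genes, so their differences and errors are given as a description: the median absolute difference was 0.52 in cisplatin livers and 0.69 in doxorubicin livers with a median SE of 0.32, against 0.14, 0.20 and an SE of 0.12 for all genes. Saa1 stood at 1.93 in cisplatin livers (SE 0.93, adjusted p = 0.215) and 2.54 in doxorubicin livers (SE 0.93, adjusted p = 0.052). Lcn2 passed in both, by 2.76 in cisplatin livers (SE 0.61, adjusted p = 0.0097) and 3.68 in doxorubicin livers (SE 0.61, adjusted p = 0.000364), and the lowest cisplatin liver, at 54.9 FPKM, lay within the range of saline livers. The 13 neutrophil markers other than Lcn2 summed to 3.43 to 10.3 FPKM in cisplatin livers and 27.3 to 42.3 FPKM in doxorubicin livers, against 5.25 to 9.37 FPKM in saline livers, and the part of those cells in the doxorubicin result was not tested. Dbp was higher in cisplatin livers by 2.44 (SE 0.53, adjusted p = 0.00909), with 27.9, 17.5, 66.7, 71.4 and 32.2 FPKM there and 0.922 to 18.2 FPKM in saline livers, which overlap. Acot3 was lower in doxorubicin livers (-2.32, SE 0.38, adjusted p = 0.000267). Gadd45b was lower in cisplatin livers (-1.62, SE 0.33, adjusted p = 0.00427), where it had 2.58 to 4.70 FPKM, below the 6.21 to 28.5 FPKM of saline livers.

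Of the 100 least variable genes, 12 passed in cisplatin livers (11 higher, 1 lower) and 35 in doxorubicin livers (19 higher, 16 lower). Of all genes 11.1% passed in cisplatin livers (642 higher, 528 lower) and 31.6% in doxorubicin livers. The choice by low spread in the same saline livers likewise fixes a smaller error, a median SE of 0.08 against 0.12 for all genes. These counts, and the adjusted p-values of Rarres2, Abhd3 and Xbp1 below, are therefore given as a description. Whether such genes change as often as others was not tested. Rarres2 stood at 230.1, 248, 254, 330.1 and 212 FPKM in doxorubicin livers, all below the 422 to 440.4 FPKM of saline livers, a difference of -0.77 (SE 0.10, adjusted p = 3.74e-05). Abhd3, a lipase on chromosome 18, was lower in cisplatin livers (-0.35, SE 0.07, adjusted p = 0.0035) and in doxorubicin livers (-0.42, SE 0.07, adjusted p = 0.000211). Xbp1 had 133 to 155 FPKM in doxorubicin livers and 70.8 to 75.8 FPKM in saline livers, a difference of 0.96 (SE 0.10, adjusted p = 2.86e-06). Gdf15 was higher by 1.95 in cisplatin livers (SE 0.23, adjusted p = 5e-05) and by 2.22 in doxorubicin livers (SE 0.23, adjusted p = 2.96e-06), with no overlap with saline livers.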

How the data were processed

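Livers of 15 mice were sequenced as poly(A) RNA, 5 for each of cisplatin, doxorubicin and saline. The values are FPKM per gene as deposited by the authors in 1 table of 21878 genes. Per the submitters' processing notes, Trim Galore 0.4.1, HISAT2 2.0.1, featureCounts 1.4.6, edgeR and the build GRCm38 (mm10) were used; their order and settings are not given there. Low values are whole multiples of 1 fragment, which gave the assigned fragments of a library (tolerance 0.0001). The fragments recovered per gene summed to 99.999% or more of the total of each library. These served for depth, counting error and shares of fragments. A column named by group and library number that the doxorubicin labels number differently is called the unnumbered doxorubicin library, and a note in the series' design text that leaves doxorubicin out goes against the labels, which were followed.

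Saline CVs are descriptions without a test. Drug groups were compared with limma 3.58.1 in R 4.3.3 (moderated test with trend and robust, two-sided) on log2(FPKM + 1) for the genes that reached 1 FPKM in 5 or more of the 15 libraries, all groups in 1 fit, Benjamini-Hochberg over 10552 genes, and tested on simulated data. Genes were named by rank in level or CV (the 30 most abundant, the 25 most and least variable) and from gene lists. Members and lists were chosen with earlier results of these data known, and Gm21320 was added to the Mups after its values were seen. Alternatives covered the pseudocount, filter, scaling, libraries left out and the replicate number as a block.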

Additional observations from a re-analysis of the deposited data

Results flagged for a closer look

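Of 93 results examined for a library far from the others of its group, 15 stood apart by a gap of more than 0.71 of the whole range of the 5 saline livers, a rate that chance gives for about 1 in 20 groups. That rate does not apply to the genes named for their high CV over the same livers, since a single distant library raises the CV. The libraries concerned were saline 2 in 8 cases, saline 3 in 4, and saline 1, 4 and 5 in 1 each.

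Saline 2 was far above the others for Fgf21 (a gap of 0.871 of the range), Acot3 (0.784), G0s2 (0.825), Lgals4 (0.932), Hsph1 (0.909), Creld2 (0.841), Syvn1 (0.83) and the summed muscle markers (0.941). Saline 3 was far above them for Mup10 (0.828), Ddit4 (0.781) and the summed neutrophil markers (0.713), a sum that is mostly Lcn2 and is 5.25 to 9.37 FPKM without it, highest in saline 5, and far below them for Gdf15 (0.712). Mup17 was highest by a gap of 0.913 in saline 1, the share of cytochrome P450 enzymes by 0.79 in saline 4, and Zbtb16 by 0.753 in saline 5.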

How the results depend on the processing

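Among the single genes checked, none that passed the test changed sign. Small differences that did not pass could, such as that of Fgb in cisplatin livers, which ran between -0.204 and 0.0414. The balance of higher and lower calls turned with scaling. As a share of fragments in place of FPKM, the 6 secreted classes took 32.6%, apolipoproteins 6.34%, major urinary proteins 1.41% and the top 10 genes 18.2%, and 198.8 genes made up 50%. Of the 100 most variable genes, 50 were shared at a minimum mean of 1 FPKM, 46 at 20 FPKM, 43 by robust CV and 48 to 92 with a library left out. Of the 100 least variable, 51 were shared at 20 FPKM, 0 by median-ratio scaling, 21 by robust CV, 53 after subtracting counting variance and 30 to 54 with a library left out. Genes with a CV of at least 50% numbered 286 at 1 FPKM, 57 at 20 FPKM, 86 by median ratios, 69 by robust CV and 64 to 206 with a library left out. The median CV was 9.85% by robust CV and 9.31% to 15.3% with a library left out.

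In cisplatin livers 482 genes changed at an adjusted p of 0.01, and 717 (without cisplatin 3) to 1240 with a library left out. Of the 30 most abundant, 2 changed with no filter, 1 by median ratios, 2 with only the groups compared, 1 at 0.01 and 1 to 6 with a library left out. Of the 100 most variable, 7 changed at 0.01 and 7 (without cisplatin 3) to 13 with a library left out, and of the 100 least variable, 4 at 0.01. In doxorubicin livers 2034 genes changed at 0.01, and 17 of the 100 most variable. With the replicate number as a block, 2170 genes changed in doxorubicin livers, 792 in cisplatin livers, and 2 of the 30 most abundant in cisplatin livers; the same-number correlations were -0.553 to 0.057, none was best with its own number, and the livers share only a number. Scaling moved the median log2 change of all genes by less than 0.1, and the split between higher and lower calls in cisplatin livers was 642 and 528 as deposited and 593 and 616 as TPM, and in doxorubicin livers 1520 and 1815 as deposited and 1808 and 1653 by median ratios. The neutrophil sum without Lcn2 and the male-biased counts without Mups were added after seeing the data, as were the counts without saline 2. For single genes 1278 checks kept their call, 61 lost it and 11 gained one. Causes were not tested. Depth limits 46 of the 100 least variable genes, whose CV is at or under the counting error.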

Other observations

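Of the other lists read without saline 2, 12 of the 17 interferon-stimulated genes were highest in saline 5 (background 44.8%) and 9 were lowest in saline 1 (background 23.6%). Over all 5 livers, 4 of the 17 were highest in saline 5 (background 13.7%) and 10 in saline 2 (background 49.0%). Pericentral genes of the liver lobule, 14 with a mean of at least 5 FPKM, were highest in saline 4 in 8 cases without saline 2 (background 26.1%). With all 5 livers, 5 of the 14 were highest in saline 4 (background 19.8%) and 6 in saline 2 (background 49.0%). The part of any cause in these counts was not tested.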
